A study of Mus musculus with 8 samples.

Results

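The effect of Dactolisib on Gr-MDSCs was examined after 6 h of treatment ex vivo. Gr-MDSCs are immature granulocytic cells that build up in tumors and restrain T cells, and Dactolisib is an inhibitor of the kinases PI3K and mTOR. The comparison held 6 of the 8 arrays of the series, 2 with Dactolisib (Dactolisib 1 and Dactolisib 2) and 4 with the solvent DMSO (DMSO 2 to DMSO 5), and these were chosen by the array titles. All cells came from male CPPSML mice carrying PB-Cre+ with the floxed tumor suppressor alleles PtenL/L and p53L/L, floxed Smad4L/L, the membrane color reporter mTmGL/+ and the luciferase reporter LSL-LucL/+, aged 12 to 16 weeks by the labels. The mice were castrated when the prostate tumor had reached 150 mm3 and were then fed enzalutamide for 4 weeks. CD11b+ Ly6G+ Ly6Clow cells were isolated from the tumors on magnetic columns and were placed at once in RPMI-1640 medium with serum and either 0.1 uM Dactolisib or DMSO. The probasin promoter drives Cre in prostate epithelium, so the floxed alleles are deleted in the tumor epithelium and not by design in the Gr-MDSCs. No source used here says whether the samples of a group came from different mice, so p-values measure only the spread between these samples, and the small number of arrays limits the precision of every value.

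PI3K activates the kinase Akt, which keeps FoxO transcription factors out of the nucleus, and mTOR complex 1 on the lysosome senses amino acids and promotes ribosome production, translation and mitochondrial function. When these kinases are inhibited, FoxO factors can induce genes that dampen or rewire the pathway, and factors of the TFEB family can induce lysosomal and autophagy genes. In granulocytes the gamma and delta forms of PI3K act downstream of chemokine and cytokine receptors.

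Each value below is a log2 signal of a probe set, the group of probes that reports a transcript on an Affymetrix array. Granulocyte transcripts were abundant on all 6 arrays. S100a8 and S100a9, the subunits of calprotectin, lay at 13.67 to 13.85 and at 13.96 to 14.12, and the mean of the 21 granulocyte markers was 10.82 to 11.15 with Dactolisib and 10.61 to 11.33 with DMSO. The mean of the 11 T and NK cell markers was 4.98 to 5.20 over the same arrays, near the medians of these arrays, 4.85 to 4.87. Ly6g, the marker used for the isolation, is not analysed here. Transcripts of other tumor cells were present at unequal levels: the mean of the 33 epithelial markers was 8.35 on Dactolisib 1 and 6.13 on Dactolisib 2, against 8.48, 6.27, 8.45 and 10.02 on DMSO 2, 3, 4 and 5. Only DMSO 5 carried secretory transcripts of the seminal vesicle, with a mean of 10.89 over 5 genes and means of 2.98 to 3.11 on the other arrays.

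By correlation, the arrays were divided into 3 sets, a number that was fixed and not estimated. Both treatments occurred together in 2 of them. Set A held Dactolisib 1, DMSO 2 and DMSO 4, set B held Dactolisib 2 and DMSO 3, and set C held DMSO 5, with the Dasatinib arrays of the series in sets B and C. The sets followed the epithelial level above, and they stayed the same, again with 3 sets, when the marker genes of all cell types were left out. They were drawn from the same values that were then compared, and the effect of this on the p-values was not tested. No label says what the sets are. The comparison was therefore made in both ways, without the sets (2 against 4 arrays) and within the sets, where each Dactolisib array is measured against the DMSO arrays of its own set and DMSO 5 adds nothing to the difference. In the text below, rose and fell mean an adjusted p under 0.05 within array sets in limma.

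Without array sets, 0.0% of the 30024 probe sets tested passed in either direction. At an unadjusted limma p under 0.05, 868 were higher and 1005 lower, and the lowest adjusted p was 0.653. The methods' t-test gave 935 and 955 at the same unadjusted threshold and 0 after adjustment. Within array sets, 659 probe sets (2.19%) rose and 1260 (4.2%) fell, with a lowest adjusted p of 0.00935. The median standard error of a difference was 0.16 on the log2 scale without the sets and 0.09 within them. Of the probe sets that passed within the sets, 651 of 659 and 1253 of 1260 had the same sign without them, and 436 and 595 had an unadjusted p under 0.05 there. The changes were small, with a median of 0.47 among those that rose and -0.48 among those that fell, and 5 rose and 23 fell by more than 2-fold. Every call within the sets was lost when Dactolisib 1, Dactolisib 2 or DMSO 3 was left out, where a single Dactolisib array carries the whole difference. Every call was also lost when the epithelial marker mean took the place of the sets. The causes of these losses were not tested.

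**Figure D1:**
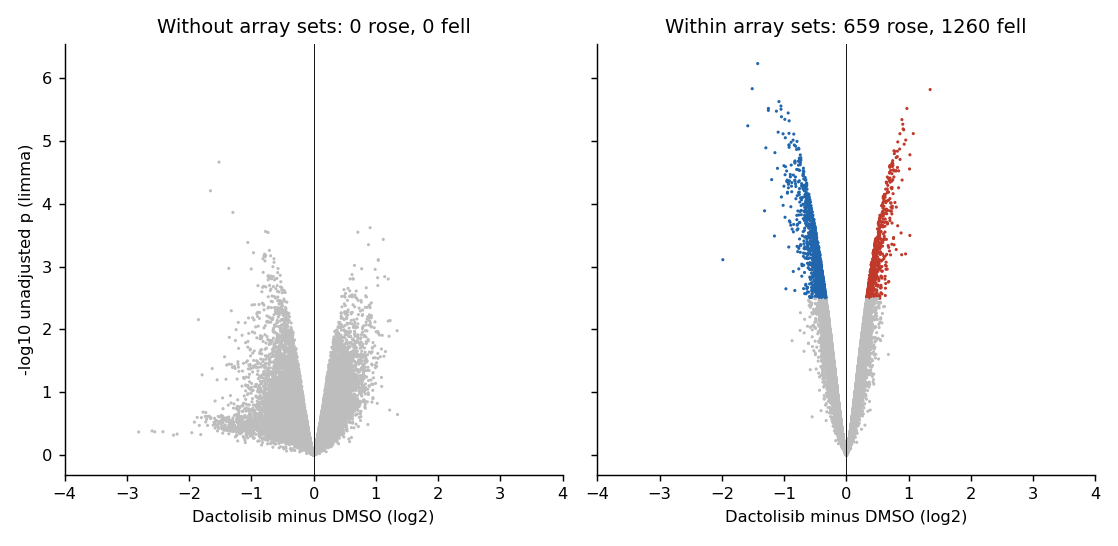
Log2 difference of Dactolisib from DMSO (x axis) against the -log10 of the unadjusted limma p (y axis) for the 30024 tested probe sets, without array sets on the left and within them on the right. Red points rose and blue points fell at an adjusted p under 0.05: 0 and 0 on the left, 659 and 1260 on the right, where the points also lie closer to 0.

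The own-set differences gave the same comparison in arrays that do not overlap: Dactolisib 1 minus the mean of DMSO 2 and DMSO 4 in set A, and Dactolisib 2 minus DMSO 3 in set B. Across the 30024 probe sets the Pearson correlation of these differences was 0.57 and the Spearman correlation 0.48, with the same sign in 65.5%. In the upper 15012 probe sets by signal the Pearson correlation was 0.74. As a scale, the difference between DMSO 2 and DMSO 4, which had the same treatment, correlated with the set B difference at 0.08. Genes are not independent replicates, and these correlations describe 5 arrays. The 100 probe sets with the largest rise in set A had a median of 0.82 there and of 0.57 in set B, and 97 of them were also higher in set B. The 100 with the largest fall in set A had medians of -0.89 and -0.80, and 98 were lower in set B too. In the reverse direction, 84 of the 100 largest rises in set B were higher in set A, with a median of 0.62 there, and 98 of the 100 largest falls were lower, with a median of -0.67. Of all probe sets, 50.2% were higher and 49.7% lower in set B, and 48.3% were higher and 51.7% lower in set A. Of the 100 probe sets with the largest positive difference between DMSO 2 and DMSO 4, 66 were higher in set B.

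**Figure D2:**
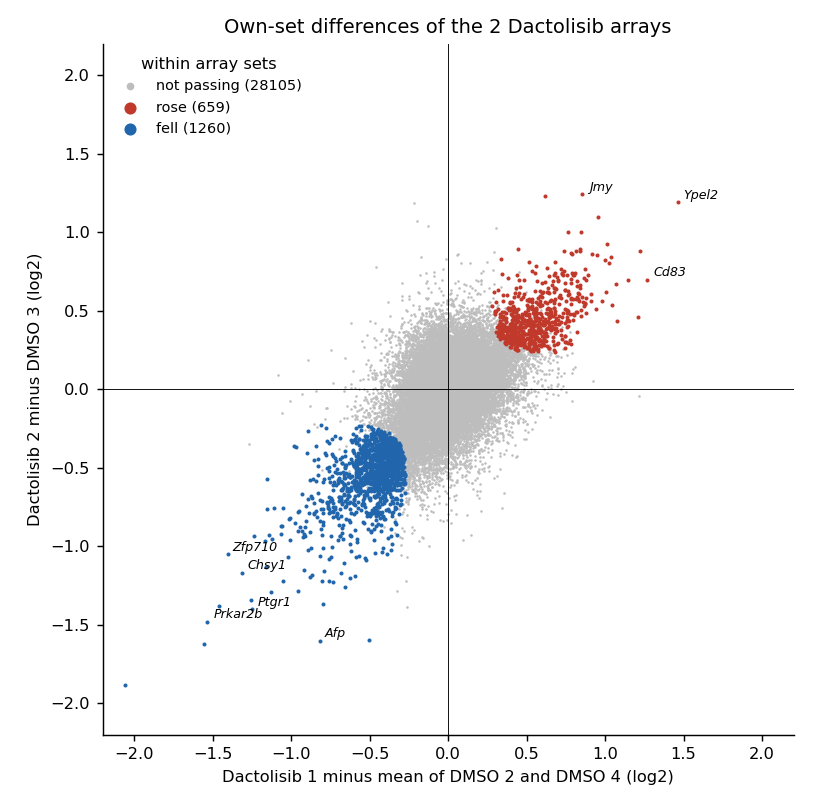
Own-set difference of each Dactolisib array on the log2 scale, Dactolisib 1 on the x axis and Dactolisib 2 on the y axis, 1 point per tested probe set. The 659 probe sets that rose (red) lie in the upper right and the 1260 that fell (blue) in the lower left, with Ypel2 and Prkar2b toward the ends.

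Ypel2, which encodes a member of the Yippee family of small zinc-binding proteins, showed the largest rise. Its log2 signal was 6.50 on Dactolisib 1 against 4.95 and 5.11 on DMSO 2 and DMSO 4, and 5.89 on Dactolisib 2 against 4.69 on DMSO 3, with 5.21 on DMSO 5. Both Dactolisib arrays were above all DMSO arrays, and the difference within array sets was 1.35 ± 0.10 (SE), adjusted p = 0.00935. Its other probe set rose by 1.08. The other 3 Yippee genes tested did not pass, and the family's median was 0.07. Jmy, a p53 cofactor that also nucleates actin, was at 6.63 and 7.05 with Dactolisib and at 5.53 to 5.81 with DMSO. The groups were well apart, the difference was 1.02 ± 0.10 (adjusted p = 0.00941), and all 4 probe sets of Jmy rose. Cd83, a surface protein induced on activated myeloid cells, was at 8.54 on Dactolisib 1 against 7.48 and 7.06 in its set, and at 8.83 on Dactolisib 2 against 8.14, with 7.82 on DMSO 5. It rose by 1.02 ± 0.16 (adjusted p = 0.0186), and DMSO 3 was the control nearest to the Dactolisib arrays.

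Tmem140, a membrane protein gene, was strongly expressed and stood at 10.72 and 11.07 with Dactolisib against 9.69, 10.25, 9.75 and 9.76 on DMSO 2, 3, 4 and 5. The difference was 0.92 ± 0.08 (adjusted p = 0.00935). Foxp1, a forkhead transcription factor, was at 6.01 and 6.17 with Dactolisib and at 4.77 to 5.32 with DMSO on the probe set with the lowest p, which rose by 0.91 ± 0.08 (adjusted p = 0.00935). Of its 8 probe sets 7 rose, and the brightest rose by 0.68 ± 0.12. Hspbap1, an Hsp27-binding protein, stood at 8.39 and 8.35 with Dactolisib and at 6.93 to 7.48 with DMSO, and its difference was 0.89 ± 0.08 (adjusted p = 0.00935). The rest of the 12 largest rises were Arrdc2, an arrestin-domain protein, at 0.97, Fam221a at 0.95, Mvd of cholesterol synthesis at 0.93, Pik3ip1 at 0.90, and the small nucleolar RNA hosts Snhg6 and Snhg12 at 0.88 and 0.86. Tbc1d15, a Rab GTPase regulator, and Fbxo32, a ubiquitin ligase subunit and FoxO target, each rose by 0.86 on their leading probe sets. All 3 probe sets of Tbc1d15 and 2 of 3 of Fbxo32 passed.

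Prkar2b, which holds protein kinase A inactive until cyclic AMP binds, showed the largest fall. It was at 6.64 on Dactolisib 1 and 6.54 on Dactolisib 2, against 8.01, 8.02, 8.34 and 8.07 on DMSO 2, 3, 4 and 5. The Dactolisib arrays were more than log2 1 below every DMSO array, at -1.51 ± 0.11 (adjusted p = 0.00935) within the sets and -1.52 ± 0.13 without them, where limma's unadjusted p was 2.17e-05. All 3 probe sets of Prkar2b fell, by 1.11 to 1.58. Dck, the kinase that starts deoxycytidine salvage, was at 8.08 and 8.18 with Dactolisib and at 9.12, 9.52, 9.54 and 9.51 on DMSO 2, 3, 4 and 5. It fell by 1.29 ± 0.13 (adjusted p = 0.00941), and all 3 of its probe sets fell. Ptgr1, an enzyme that acts on prostaglandins and leukotriene B4, was at 6.91 against 7.81 and 8.50 in set A and at 7.38 against 8.78 in set B. It stood at 10.65 on DMSO 5, and the difference within sets was -1.31 ± 0.18 (adjusted p = 0.0139).

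The largest falls also held Chsy1, a chondroitin synthase, at 7.11 against 8.30 and 8.55 in set A and at 6.25 against 7.42 in set B. DMSO 5 was at 7.32, so that Dactolisib 1 lay just below the lowest control, and the difference within sets was -1.25 ± 0.10 (adjusted p = 0.00935). Zfp710, a zinc finger gene, was at 7.05 against 8.41 and 8.50, and at 6.49 against 7.54. DMSO 5 was at 6.81, between the Dactolisib arrays, and the difference was -1.25 ± 0.10 within sets and -1.04 ± 0.51 without them. The other probe set of Zfp710 lay at -0.26 and did not pass. E2f2, a cell cycle transcription factor, showed the same layout, with 5.70 against 6.88 and 6.86, 4.85 against 5.82, and 4.87 on DMSO 5. It fell by 1.08 ± 0.08 within sets (adjusted p = 0.00935). The others were Dclre1b at -1.42, Afp at -1.16, Klhl2 at -1.10, Tspan2 at -1.05, Trim9 at -1.04 and Tmpo at -1.04. Dclre1b and Afp were dim, with signals of 2.88 to 4.89 and 3.28 to 5.52, and the other probe set of Dclre1b did not pass, at -0.28.

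**Figure D3:**
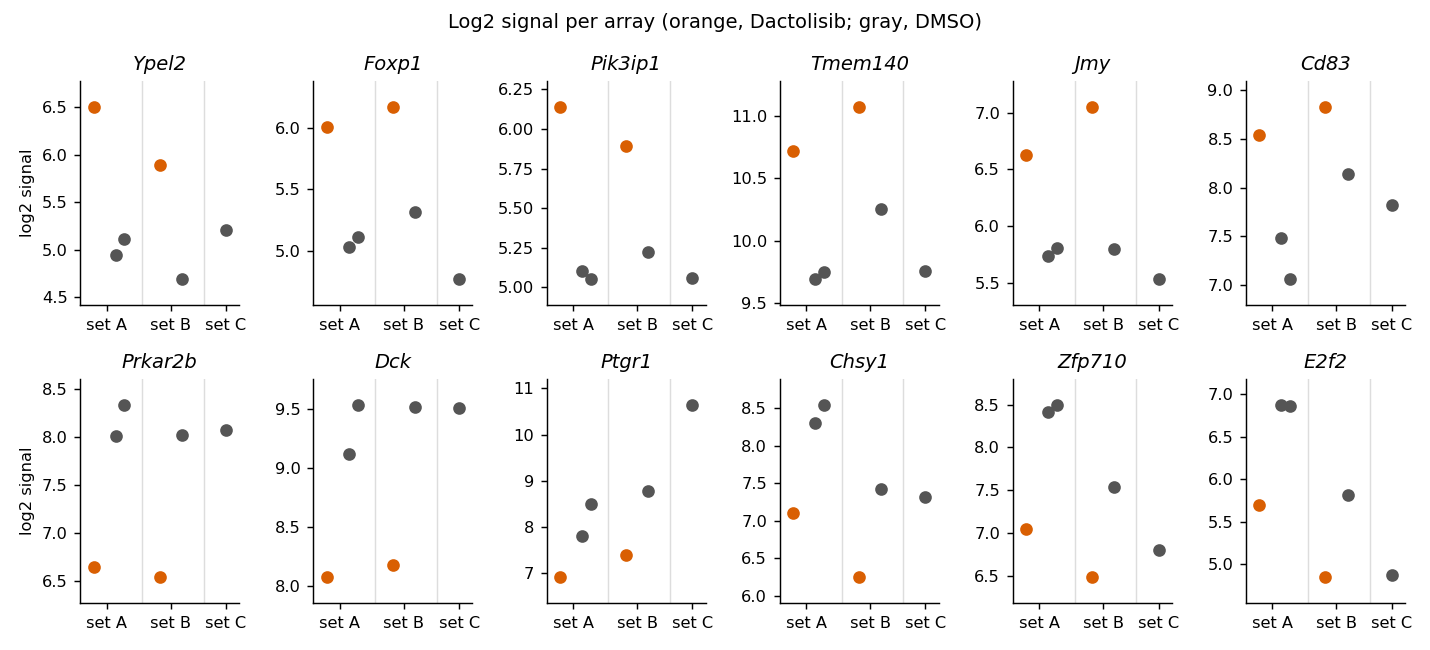
Log2 signal (y axis) of 6 genes that rose and 6 that fell on each array, grouped by array set (x axis), with Dactolisib in orange and DMSO in gray, 1 point per array and no error bar. Ypel2, Pik3ip1, Prkar2b and Dck separate the groups in both sets that hold Dactolisib, whereas for Zfp710 and E2f2 the DMSO 5 array of set C lies at or below the level of a Dactolisib array.

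Beside genes named above, other genes led by p without array sets. Hnrnpdl, an RNA-binding protein, was at 9.78 and 9.72 with Dactolisib and at 9.03, 9.11, 9.0 and 9.03 on DMSO 2 to 5. The groups did not overlap, and the difference was 0.71 ± 0.10 without sets and 0.70 ± 0.08 within them. This was the largest of the 7 probe sets of Hnrnpdl, of which 3 rose, and the lowest lay at -0.22. Dyrk2, a kinase, was 0.66 ± 0.11 higher without sets and 0.60 ± 0.08 within them. On the lower side were Srek1ip1 at -0.71 ± 0.11 and Hibch, a valine-degrading enzyme, at -0.79 ± 0.12 without sets. Beside them lay AI662270 and AI987944, which are named only by their sequence records, at -0.73 and -0.97. None of these passed after adjustment without the sets, and all 6 passed within them. The other probe set of Srek1ip1 lay at -0.13 within the sets and did not pass.

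Over genes, each represented by its brightest probe set, 319 of 14237 rose (2.24%) and 663 fell (4.66%), and the counts of gene lists are read against these shares. Calls were more frequent at high signal. Among the upper 10008 tested probe sets by signal 478 rose and 751 fell, and among the lowest 10008, 62 rose and 128 fell. The shares of all genes were not matched to the signal of a list, so a list of bright genes can exceed them for that reason. Across the same genes, 31.6% were higher and 35.4% lower than the own-set DMSO on both Dactolisib arrays, and the median difference was 0.00. Both Dactolisib arrays were above all DMSO arrays in 11.1% of genes and below all of them in 10.8%, against which the single genes described as not overlapping are read. A total of 302 genes passed on 2 or more probe sets in the same direction, 113 higher and 189 lower, and 3 passed in both directions. Among genes named in the text that passed, another probe set lay on the other side of 0 for Tmpo (0.13), Cxcl12 (0.16) and Bach1 (0.05), and for those said to disagree beside their values. In bulk RNA, fewer cells of a type and less RNA per cell cannot be told apart.

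Among PI3K and Akt components, 4 of 32 genes rose and 1 fell, and the median difference was 0.06. Pik3ip1, which binds the catalytic subunit and inhibits PI3K, was at 6.14 and 5.89 with Dactolisib and at 5.05 to 5.22 with DMSO. It rose by 0.90 ± 0.11 (adjusted p = 0.0102) on this probe set and by 0.84 on the other, and it is among the genes with the lowest p without sets, at 0.91 ± 0.12. The adaptors Irs2 and Gab2, which bring PI3K to activated receptors, rose by 0.48 ± 0.08 and 0.54 ± 0.08, and Pdpk1, the kinase that phosphorylates Akt, by 0.39 ± 0.08. Irs2 was at 8.63 and 8.85 with Dactolisib and at 7.63 to 8.45 with DMSO, so that the groups were apart. The catalytic subunits differed in their values on the brightest probe sets. Pik3cg, the gamma subunit, fell by 0.41 ± 0.08 (adjusted p = 0.0266), while Pik3ca and Pik3cb lay at 0.26 and 0.20 and Pik3cd at 0.02 without passing. The gamma and delta subunits were not set apart by all probe sets. The 5 probe sets of Pik3cd lay at -0.33 to 0.02, and the other probe set of Pik3cg lay at -0.33 without passing. On its brightest probe set Pik3cg was at 8.11 against 8.50 and 8.52 in set A and at 7.42 against 7.84 in set B, with DMSO 5 lower than all of these at 6.67.

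Among mTOR complexes and their regulators, 5 of 47 genes rose and 4 fell, with a median of 0.04. Those that rose were Ulk1, the kinase that starts autophagy (0.61 ± 0.08), Rhebl1, a relative of the mTOR activator Rheb (0.56 ± 0.09), Pdcd4, a translation inhibitor degraded after S6K phosphorylation (0.53 ± 0.08), Rragc, a Rag GTPase that recruits mTOR to the lysosome (0.50 ± 0.09), and Tsc1, a subunit of the complex that restrains Rheb (0.47 ± 0.09). Ulk1 was at 9.41 and 9.20 with Dactolisib and at 8.23 to 8.79 with DMSO, without overlap. Those that fell were Lamtor4 (-0.70 ± 0.09) and Lamtor2 (-0.53 ± 0.08), which anchor the Rag GTPases on the lysosome, Rraga (-0.39 ± 0.08) and the S6 kinase relative Rps6ka3 (-0.57 ± 0.12). Rag pathway genes lay on both sides. Only 1 probe set passed for Lamtor2 (of 2), Rhebl1 (of 2), Tsc1 (of 3) and Rps6ka3 (of 3). The weakest of their other probe sets lay at -0.18, 0.35, 0.13 and -0.08, in that order. Mtor itself was at 7.31 and 7.26 with Dactolisib and at 7.35 to 7.44 with DMSO, a difference of -0.11 ± 0.08 that did not pass (adjusted p = 0.446). Rps6 and Eif4ebp1, which encode the mTOR readout proteins S6 and 4E-BP1, were at 0.16 and -0.09, and neither passed.

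Autophagy and lysosomal genes differed in direction. Of the 39 autophagy genes 4 rose, 23 were higher and 6 lower than the own-set DMSO on both arrays, and the median was 0.09. Rb1cc1, the scaffold of the Ulk1 complex, was at 9.62 and 9.56 with Dactolisib and at 8.28 to 9.05 with DMSO, and it rose by 0.77 ± 0.13 (adjusted p = 0.0208). Tecpr1, which links autophagosomes to lysosomes, rose by 0.61 ± 0.10, and Gabarapl1, which decorates autophagosome membranes, by 0.39 ± 0.08. Of the 47 genes for lysosomal hydrolases and membrane proteins 3 rose and 8 fell, with a median of -0.05. Naglu and Dpp7, a hydrolase for heparan sulfate and a peptidase, rose by 0.57 and 0.48, and Slc17a5, the sialic acid exporter, by 0.48. Man2b1, an alpha-mannosidase, was at 9.30 against 9.89 and 9.98 in set A and at 8.57 against 9.29 in set B, and fell by 0.67 ± 0.08 (adjusted p = 0.0103). Gm2a, the activator of ganglioside breakdown, fell by 0.54 and Ppt2, a thioesterase, by 0.51. Among genes of the V-ATPase, the pump that acidifies lysosomes, 1 of 18 rose.

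Factors of the TFEB family bind an E-box that reads TCACGTG. A promoter in the RefSeq table was matched by gene ID for 11369 of the 14237 genes. Of the 262 such genes that rose, 38 (14.5%) held TCACGTG on either strand in the window from 250 bases before to 50 bases after the start, compared with 26 of 561 that fell (4.63%), 6.39% of all tested genes and 3.77% of all 32851 promoters of this length. Here and below, a gene was counted once if any of its promoters held the motif, and shares of genes are over those with a promoter. The share of all promoters counts each promoter, so its unit differs. A match is a description and not a binding site. The promoters of Hspbap1 and Naglu, which rose, and of Prkar2b, which fell, are shown since they hold the motif in genes of opposite change. The sequences are from RefSeq for build GRCm38.p6, 5′ to 3′ on the gene's strand, with TCACGTG or its reverse complement in capitals.
Hspbap1, chr16:35770136-35770435, plus strand: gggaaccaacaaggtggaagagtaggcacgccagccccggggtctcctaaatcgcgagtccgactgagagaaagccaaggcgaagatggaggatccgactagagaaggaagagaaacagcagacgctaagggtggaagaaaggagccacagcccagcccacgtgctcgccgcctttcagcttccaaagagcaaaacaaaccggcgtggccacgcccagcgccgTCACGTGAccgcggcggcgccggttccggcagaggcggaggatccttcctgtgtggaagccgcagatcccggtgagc
Naglu, chr11:101069844-101070143, plus strand: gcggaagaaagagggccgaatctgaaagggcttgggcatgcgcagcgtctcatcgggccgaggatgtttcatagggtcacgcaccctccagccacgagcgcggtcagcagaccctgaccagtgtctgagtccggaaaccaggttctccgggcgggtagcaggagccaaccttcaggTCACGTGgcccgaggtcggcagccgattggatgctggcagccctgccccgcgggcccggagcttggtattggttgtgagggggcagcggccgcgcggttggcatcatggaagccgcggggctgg
Prkar2b, chr12:32061228-32061527, minus strand: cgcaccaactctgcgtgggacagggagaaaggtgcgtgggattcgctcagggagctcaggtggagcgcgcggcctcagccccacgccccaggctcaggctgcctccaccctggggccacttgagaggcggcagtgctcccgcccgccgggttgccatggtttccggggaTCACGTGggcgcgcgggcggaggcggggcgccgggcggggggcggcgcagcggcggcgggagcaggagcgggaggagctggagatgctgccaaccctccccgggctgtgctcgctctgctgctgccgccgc

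Among 38 FoxO target genes, 9 rose and 3 fell, 25 were higher and 8 lower than the own-set DMSO on both arrays, and the median was 0.11. Only 3 of the 9 passed with array set as a random block, and 3 with all 8 arrays in the fit. Besides Pik3ip1, Irs2 and Gabarapl1, the genes that rose included Pink1, a kinase that marks damaged mitochondria (0.46 ± 0.08), Bbc3, the cell death factor PUMA (0.42 ± 0.08), and Gadd45b, a stress-response gene (0.43 ± 0.09). Pink1 was at 8.71 and 8.45 with Dactolisib and at 7.69 to 8.29 with DMSO, without overlap. The 3 that fell were Cat, which encodes catalase, at 6.63 against 7.39 and 7.50 and at 6.54 against 7.24 (-0.77 ± 0.08, adjusted p = 0.00941), Ccnd2, a D-type cyclin (-0.59 ± 0.09), and Bcl6, a transcriptional repressor (-0.42 ± 0.08). FoxO factors bind GTAAACA. On either strand this motif was present for 21 genes that rose (8.02%), 14 genes that fell (2.5%) and 3.24% of tested genes. It was present for 4 of 30 genes of the FoxO list with a promoter (13.3%), and in 3.65% of all promoters. The promoters of Tmem140, with 2 copies, and Jmy are shown because both genes were among the largest rises and were not on the FoxO list. GTAAACA or its reverse complement is in capitals, and the source is RefSeq for GRCm38.p6.
Tmem140, chr6:34862896-34863195, plus strand: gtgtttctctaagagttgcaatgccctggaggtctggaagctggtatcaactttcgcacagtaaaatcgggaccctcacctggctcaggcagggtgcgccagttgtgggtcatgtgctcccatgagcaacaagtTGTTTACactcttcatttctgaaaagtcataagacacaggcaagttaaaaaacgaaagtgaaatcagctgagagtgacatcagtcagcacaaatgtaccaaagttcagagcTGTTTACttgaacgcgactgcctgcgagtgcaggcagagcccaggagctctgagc
Jmy, chr13:93499759-93500058, minus strand: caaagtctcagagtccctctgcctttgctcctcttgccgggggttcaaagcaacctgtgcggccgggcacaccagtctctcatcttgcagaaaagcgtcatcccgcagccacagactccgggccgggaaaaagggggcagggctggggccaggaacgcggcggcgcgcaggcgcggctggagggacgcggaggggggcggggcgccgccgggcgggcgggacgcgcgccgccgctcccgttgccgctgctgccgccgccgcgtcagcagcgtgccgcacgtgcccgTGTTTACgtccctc

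Genes that host small nucleolar RNAs in their introns had the highest share of calls among the 63 lists examined. Of 15 tested, 8 rose (53.3%), 11 were higher than the own-set DMSO on both Dactolisib arrays, and the median difference was 0.46, with 0.44 in set A and 0.48 in set B. With array set as a random block 5 of the 8 passed. The difference between DMSO 2 and DMSO 4 had a median of -0.04 over the same genes. Zfas1 was at 8.70 and 8.94 with Dactolisib and at 8.03, 8.37, 8.07 and 8.14 on DMSO 2 to 5, without overlap, and rose by 0.62 ± 0.08 (adjusted p = 0.0114). Taf1d, a subunit of the RNA polymerase I factor that hosts such RNAs, was at 7.23 and 7.49 against 6.34 to 7.12, and rose by 0.82 ± 0.09 (adjusted p = 0.00941). Snhg6 was at 7.76 against 7.07 and 7.21 in set A and at 7.31 against 6.08 in set B, with 8.42 on DMSO 5, and rose by 0.88 ± 0.14. The same layout, with DMSO 5 high, held for Snhg12 (0.86), Snhg1 (0.56) and Rpl22l1 (0.46). Snhg5 rose by 0.64. The brightest probe set of Gas5 was at 9.28 and 9.31 with Dactolisib and at 8.57, 8.61, 8.59 and 9.23 on DMSO 2 to 5, and rose by 0.70 ± 0.08 (adjusted p = 0.00941). The probe sets of Gas5 disagreed, since 2 of 4 rose and 1 fell by 0.35. For Taf1d 2 of 5 probe sets rose and the lowest lay at -0.34, for Snhg1 3 of 5 rose and the lowest lay at -0.06, and for Snhg5 1 of 2 rose and the other lay at 0.04. Without array sets the median of the list was 0.19.

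The transcripts of some small nucleolar RNA hosts, like those of ribosomal proteins, begin with a run of pyrimidines. This is the terminal oligopyrimidine motif, through which mTOR controls translation. The motif was searched as CTTTC, as the letters CTTTT or as the letters CCTTT, which can overlap each other. The search ran on the gene's strand from 10 bases before to 10 after the annotated start. The motif was present for 4 of 13 host genes with a promoter (30.8%) and for 11 of 37 cytosolic ribosomal protein genes (29.7%). The share was 7.09% over the tested genes and 6.57% over all promoters, and on the other strand it was 6.06% over the tested genes and 0 of 13 and 2 of 37 in these lists. The mRNAs of 42 cytosolic ribosomal proteins, in contrast, gave 0 calls in limma, with 0 at an unadjusted p under 0.05, and a median of 0.03. The 30 bases around 3 host starts are shown because they carry the motif, in capitals, and that of Gas5 is among several starts in the table. The annotated starts of Taf1d, Zfas1, Snhg1 and Rpl22l1, which also rose, did not carry it. A match in the window need not be at the first base, and that of Snhg5 lies after the annotated start. They are from RefSeq for GRCm38.p6.
Snhg12, chr4:132308668-132308697, plus strand: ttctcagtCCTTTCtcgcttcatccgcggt
Gas5, chr1:161035156-161035185, plus strand: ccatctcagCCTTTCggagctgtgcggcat
Snhg5, chr9:88522878-88522907, minus strand: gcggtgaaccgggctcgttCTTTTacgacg

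**Figure D4:**
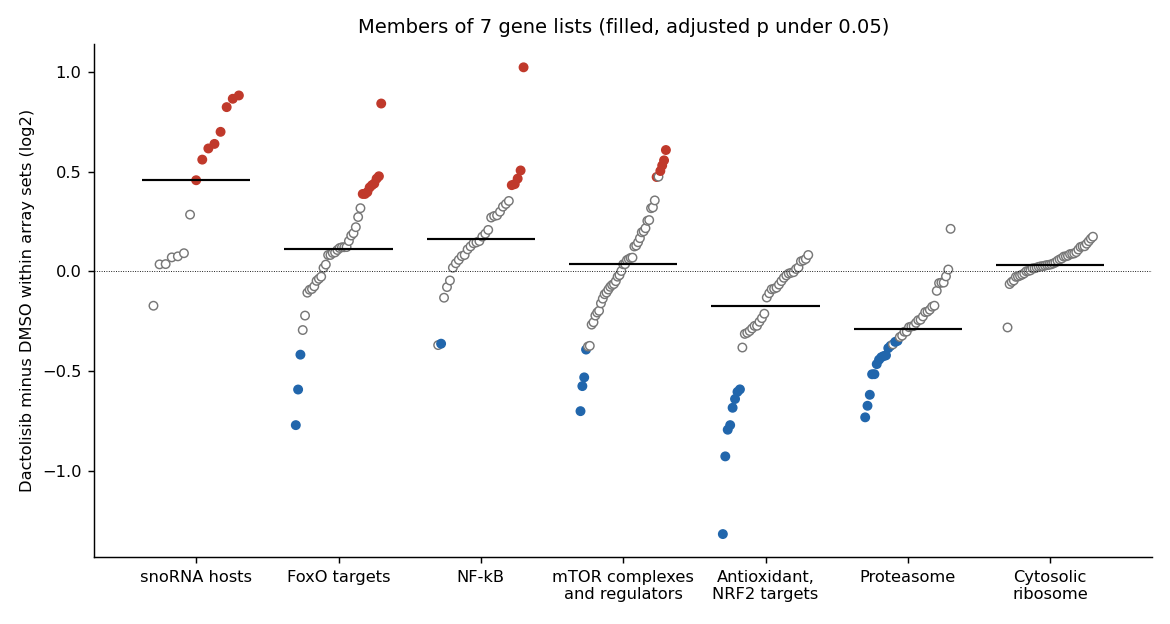
Log2 difference within array sets (y axis) for every tested gene of 7 lists (x axis), each sorted by value, filled where the gene rose (red) or fell (blue) and open where it did not pass, with a black line at the median. The medians are 0.46 for small nucleolar RNA hosts, 0.16 for NF-kB genes, -0.17 for antioxidant genes, -0.29 for proteasome subunits and 0.03 for cytosolic ribosomal proteins.

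Genes for the respiratory chain, the mitochondrial ribosome and the proteasome fell in larger shares than all genes. Of 79 respiratory chain and ATP synthase genes 18 fell and 69 were lower than the own-set DMSO on both arrays, with medians of -0.20 in set A and -0.29 in set B. Uqcr11, a small subunit of complex III, was at 6.88 against 7.72 and 7.65 in set A and at 6.42 against 7.34 in set B, with 8.49 on DMSO 5. It was below every DMSO array on both Dactolisib arrays and fell by 0.86 ± 0.08 (adjusted p = 0.00941). Of 75 mitochondrial ribosomal protein genes 19 fell, led by Mrpl22 at 5.57 and 5.58 with Dactolisib against 6.32 to 7.21 (-0.84 ± 0.08, adjusted p = 0.00941). Slirp, which stabilizes mitochondrial mRNAs, Ssbp1, which coats mitochondrial DNA, and Tfam, which packages it, fell by 0.75, 0.58 and 0.52, out of 23 genes of mitochondrial DNA and transcription. Other mitochondrial lists lay nearer to the 4.66% of all genes, with 3 of 26 carriers (11.5%), 2 of 22 fatty acid oxidation genes (9.09%), 2 of 29 genes for heme, coenzyme Q and iron-sulfur clusters (6.9%) and 1 of 24 genes for fission, fusion and mitophagy (4.17%) that fell. Of 38 proteasome genes 14 fell and 34 were lower in both sets, with medians of -0.25 and -0.34. Psmb5, the chymotrypsin-like catalytic subunit, was at 9.80 and 10.09 with Dactolisib and at 10.51, 10.81, 10.57 and 10.68 on DMSO 2 to 5, without overlap, and fell by 0.73 ± 0.08 (adjusted p = 0.00941). Psmd5, an assembly chaperone, and Psma1, a core subunit, fell by 0.67 and 0.62. With array set as a random block the calls were 6 of the 18 respiratory chain genes, 8 of the 19 mitochondrial ribosomal genes and 6 of the 14 proteasome genes.

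ETS and NRF1 factors are known regulators of nuclear genes for mitochondria. The ETS motif CCGGAAG, on either strand, was present for 24 of 66 mitochondrial ribosomal protein genes with a promoter (36.4%). It was present for 27.0% of the respiratory chain genes and 31.2% of the proteasome genes. These compare with 131 of 561 genes that fell (23.4%), 38 of 262 that rose (14.5%), 17.3% of tested genes and 8.86% of all promoters. The ETS motif was also present for 51.4% of the cytosolic ribosomal protein genes, which gave no call. The NRF1 core GCATGCGC was present for 9 of 63 respiratory chain genes with a promoter (14.3%), against 5.3% of tested genes and 2.71% of all promoters. The promoters of Uqcr11 and Mrpl22, the leading genes of their lists, are shown because each holds both motifs. These are in capitals in either orientation, and the source is RefSeq for GRCm38.p6.
Uqcr11, chr10:80406772-80407071, minus strand: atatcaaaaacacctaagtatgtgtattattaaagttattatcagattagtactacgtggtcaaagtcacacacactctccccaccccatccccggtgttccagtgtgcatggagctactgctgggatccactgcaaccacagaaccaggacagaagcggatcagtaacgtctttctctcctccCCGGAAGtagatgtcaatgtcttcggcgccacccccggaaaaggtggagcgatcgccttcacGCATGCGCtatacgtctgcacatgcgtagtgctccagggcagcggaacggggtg
Mrpl22, chr11:58171414-58171713, plus strand: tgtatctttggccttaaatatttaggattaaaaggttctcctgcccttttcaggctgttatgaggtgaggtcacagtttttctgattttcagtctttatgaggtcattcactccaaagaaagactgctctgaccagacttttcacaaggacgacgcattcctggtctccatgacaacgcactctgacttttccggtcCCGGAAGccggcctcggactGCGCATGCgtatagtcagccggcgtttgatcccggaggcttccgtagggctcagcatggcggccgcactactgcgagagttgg

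Of 36 antioxidant and NRF2 target genes, 8 fell (22.2%), 23 were lower and 3 higher than the own-set DMSO on both arrays, and the median was -0.17. With array set as a random block 1 of these 8 passed. Besides Ptgr1 and Cat these were Gclm, which limits glutathione synthesis (-0.92 ± 0.16), Nqo1, a quinone reductase (-0.79 ± 0.12), Blvrb, a biliverdin reductase (-0.68 ± 0.11), Srxn1, which repairs peroxiredoxins (-0.64 ± 0.08), Gpx1, a glutathione peroxidase (-0.60 ± 0.08), and Txnrd1, a thioredoxin reductase (-0.59 ± 0.09). Gclm was at 10.16 against 10.94 and 11.47 in set A and at 10.74 against 11.50 in set B, with 12.11 on DMSO 5, so that both Dactolisib arrays were the lowest. Gpx1 followed the sets, at 11.56 against 12.11 and 12.12 and at 10.49 against 11.15, and the groups overlapped without them. The DMSO arrays of set A also differed in this list, where DMSO 2 minus DMSO 4 had a median of -0.11. The antioxidant response element was searched as TGAC-NNN-GC on either strand, where N is any base. It was present for 7 of 30 genes of the list with a promoter (23.3%). It was also present for 60 of the genes that rose (22.9%), 95 of those that fell (16.9%), 16.5% of tested genes and 12.4% of all promoters. Of 7 pentose phosphate genes, whose enzymes supply NADPH, 2 fell: H6pd by 0.75 ± 0.09 and Pgd by 0.51 ± 0.10. Their list median was -0.36, and DMSO 2 minus DMSO 4 was -0.19.

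Enzymes of deoxynucleotide supply fell in 4 of 20 cases. Besides Dck these were Dctpp1 (-0.72 ± 0.15) and Itpa (-0.35 ± 0.08), which cleanse the nucleotide pool, and Samhd1 (-0.34 ± 0.08), a triphosphate hydrolase. In the list for the G1 to S transition and DNA replication, 2 of 48 rose and 4 fell. Mcm7, a subunit of the replicative helicase, and Mcm10, which helps to activate it, rose by 0.68 ± 0.08 and 0.42 ± 0.08, in contrast to Ccnd2 and E2f2. Of 23 p53 target genes 1 rose and 3 fell, with Bbc3 on the higher side. Xpc, a DNA damage sensor, fell by 0.88 ± 0.11, Ccng1, a cyclin, by 0.72 ± 0.10, and Ei24, a membrane protein of the endoplasmic reticulum, by 0.52. Of 41 spliceosomal genes 10 fell and 1 rose, with a median of -0.12, and Prpf19, Lsm3 and Snrnp40 fell by 0.53, 0.49 and 0.45.

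Lists of stress and amino acid response genes differed in the direction of their calls. Of 32 ATF4 targets and amino acid supply genes 3 rose (9.38%, against 2.24% of all genes) and 0 fell. These were Ddit3, which encodes CHOP (0.57 ± 0.08), Atf3 (0.46 ± 0.08) and Atf4 itself (0.33 ± 0.08). The median of the list was 0.02. Ddit3 was at 11.29 and 11.39 with Dactolisib and at 10.03 to 10.91 with DMSO, without overlap. Ddit3 is also in a list of 33 genes of endoplasmic reticulum stress and the unfolded protein response. In that list 1 rose (3.03%) and 4 fell (12.1%). On both arrays 7 of its genes were higher and 16 lower than the own-set DMSO, with a median of -0.06. In cholesterol synthesis and uptake, 1 of 21 rose and 1 fell. Mvd, which forms isopentenyl diphosphate, was at 8.27 and 8.50 with Dactolisib against 6.56 to 7.69 and rose by 0.93 ± 0.09 (adjusted p = 0.00941), while Msmo1, a later enzyme of the same pathway, fell by 0.53 ± 0.09 (adjusted p = 0.0226). The pathway thus held changes in both directions.

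**Figure D5:**
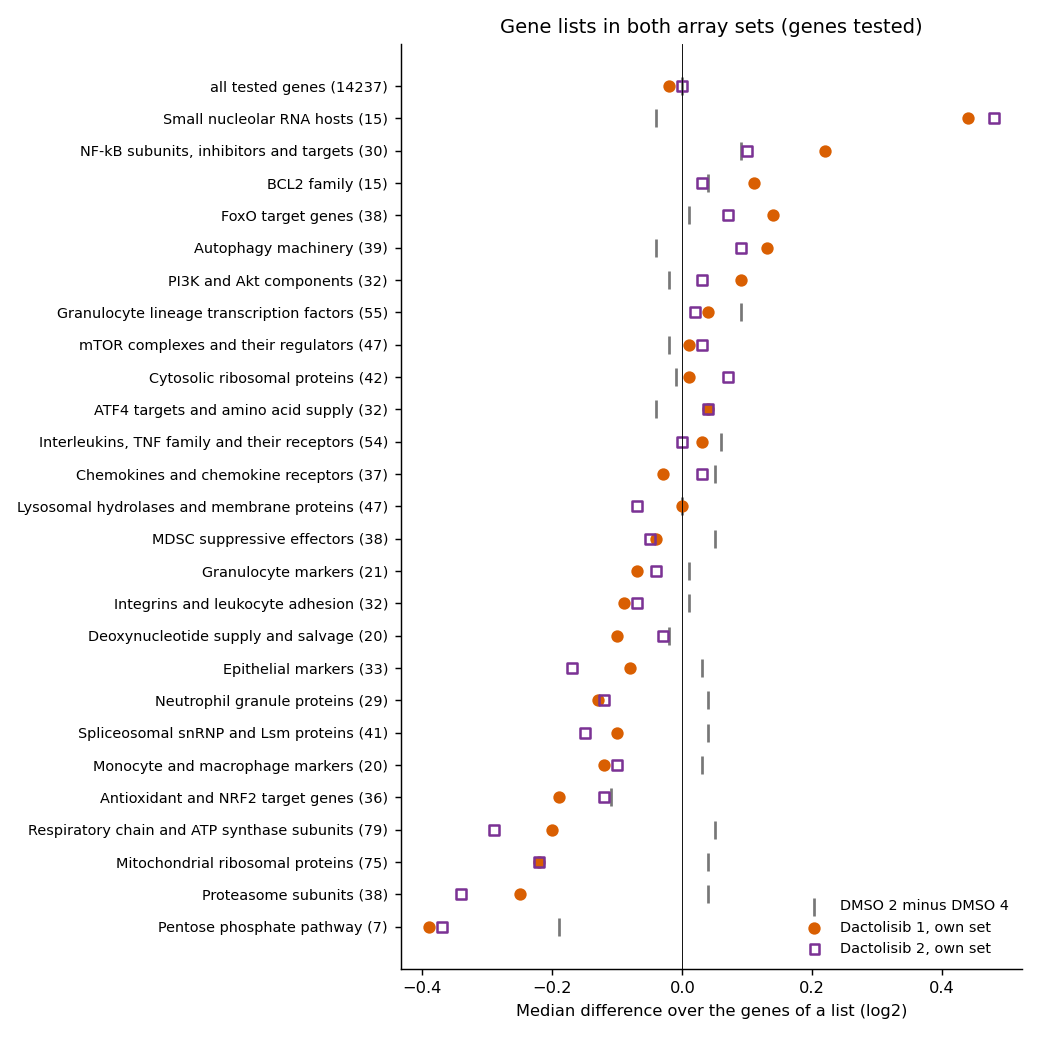
Median log2 difference over the tested genes of a list (x axis) for selected gene lists and all tested genes (y axis, number of genes in brackets), in set A (orange circles, Dactolisib 1), set B (purple squares, Dactolisib 2) and between DMSO 2 and DMSO 4 (gray bars). Small nucleolar RNA hosts lie at 0.44 and 0.48, proteasome subunits at -0.25 and -0.34, and all tested genes at -0.02 and 0.00.

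Of 38 genes of the suppressive function of MDSCs, 1 rose and 1 fell. Cd274, which encodes the checkpoint ligand PD-L1, was at 11.90 on Dactolisib 1 against 11.21 and 11.12 in set A and at 12.44 on Dactolisib 2 against 11.96 in set B, with 11.01 on DMSO 5. It rose by 0.63 ± 0.09 within array sets (adjusted p = 0.0152), whereas Dactolisib 1 was below DMSO 3 and the groups overlapped when the sets were ignored. Clec4n, a lectin receptor for fungi, fell by 0.64 ± 0.10. Arg1, the arginase that depletes arginine, was at 12.38, 12.32 and 12.37 on the arrays of set A, at 7.93 and 8.07 on those of set B and at 9.29 on DMSO 5. Its level followed the set, and the difference was -0.04 ± 0.08 (adjusted p = 0.82). Nos2 lay at 0.22 (adjusted p = 0.163), Il1b at -0.25 (adjusted p = 0.105), Il1rn at -0.06, S100a8 at -0.06 and S100a9 at -0.08, and none of these passed.

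Among 30 NF-kB subunits, inhibitors and targets, 5 rose and 1 fell, 24 were higher and 4 lower than the own-set DMSO on both arrays, and the median was 0.16, with 0.22 in set A and 0.10 in set B. Of the 5, 2 passed with array set as a random block and 3 with all 8 arrays. DMSO 2 minus DMSO 4 had a median of 0.09 over the list. Besides Cd83 and Gadd45b, these were Relb, a subunit of the noncanonical pathway (0.51 ± 0.09), Nfkbie, an inhibitor of NF-kB (0.46 ± 0.09), and Traf2, an adaptor of TNF receptors (0.44 ± 0.08). Traf2 was at 8.09 and 8.29 with Dactolisib and at 7.65 to 7.86 with DMSO, without overlap. Map3k14, the kinase NIK that activates the noncanonical pathway, fell by 0.36 ± 0.08. Of 54 interleukin and TNF family genes 4 rose: Il12a (0.68 ± 0.14), Tnfrsf14 (0.48 ± 0.09), its ligand Tnfsf14 (0.46 ± 0.08) and Il15 (0.43 ± 0.08). Il12a was at 7.15 and 7.61 with Dactolisib and at 5.37 to 7.12 with DMSO, so that DMSO 3 came close to Dactolisib 1. Il1rn and Il1b, given above, are in the same list.

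Chemokine genes and their receptors rose in 2 of 37 cases and fell in 4. Ccrl2, an atypical receptor that presents chemerin, rose by 0.50 ± 0.10 and Cxcl16 by 0.45 ± 0.08. Cx3cr1, the fractalkine receptor, was at 6.04 against 6.71 and 6.71 in set A and at 5.60 against 6.46 in set B, with 5.83 on DMSO 5, and fell by 0.75 ± 0.08 (adjusted p = 0.00941). Cxcr2, which draws neutrophils toward CXC chemokines, was at 8.85 against 9.62 and 9.63 and at 8.76 against 9.01, with 8.23 on DMSO 5. It fell by 0.55 ± 0.12 (adjusted p = 0.0437), with a larger own-set difference in set A (-0.78) than in set B (-0.25). Cxcl11 and Cxcl12 fell by 0.49 and 0.36. Among 43 pattern recognition and C-type lectin receptor genes 5 fell, with Clec4a3 at -0.63 ± 0.08 and Clec4a2 at -0.51 ± 0.08, and 1 rose, Irak2, a kinase of Toll-like receptor signaling (0.50 ± 0.09). Clec4a3 was at 7.44 and 7.49 with Dactolisib, at 7.97 to 8.22 on the DMSO arrays of the same sets and at 5.75 on DMSO 5.

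Adhesion and granule genes leaned lower within the sets, with medians of -0.10 and -0.11. Without the sets their medians were -0.02 and -0.03. Of 32 integrin and leukocyte adhesion genes 5 fell (15.6%, against 4.66% of all genes). Fermt3, the kindlin that activates integrins, was at 9.36 and 9.59 with Dactolisib and at 10.00 to 10.72 with DMSO, without overlap, and fell by 0.98 ± 0.14 (adjusted p = 0.0148). Itgax, Spn, Ceacam1 and Itgal fell by 0.55, 0.52, 0.42 and 0.41. Of 29 neutrophil granule genes 3 fell (10.3%). These were Pglyrp1, a bactericidal granule protein (-0.77 ± 0.08), Mmp9, a gelatinase (-0.62 ± 0.08), and Hp, haptoglobin (-0.50 ± 0.12). Among 55 granulocyte lineage transcription factors 4 rose and 3 fell. Gfi1, a transcriptional repressor needed for granulocyte differentiation, rose by 0.72 ± 0.10 from a dim signal, and Foxp1, Tsc22d3 and Mxd1 rose by 0.68, 0.53 and 0.36. Cebpd, Bcl6 and Bach1 fell by 0.60, 0.42 and 0.37.

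Among lipid mediator genes only falls passed, while few cyclic AMP genes passed, in both directions. Of 25 genes for prostaglandin and leukotriene handling 4 fell, namely Ptgr1, Pla2g4a, the phospholipase that releases arachidonic acid (-0.67 ± 0.10), Ptgir, the prostacyclin receptor (-0.59 ± 0.09), and Alox5, which starts leukotriene synthesis (-0.57 ± 0.09). Ptgir was at 6.22 and 6.35 with Dactolisib and at 6.72 to 6.94 with DMSO, without overlap. Of 33 protein kinase A and cyclic AMP genes 2 rose and 2 fell (6.06% each, against 2.24% and 4.66% of all genes), with a median of 0.01. Prkar2b fell as given above together with Prkaca, a catalytic subunit (-0.72 ± 0.09), while Pde4d, a phosphodiesterase, and Crtc2, a coactivator of CREB, rose by 0.47 and 0.42. Prkaca was at 6.24 and 5.26 with Dactolisib and at 6.16 to 6.85 with DMSO, and its other probe set lay at -0.10 without passing. Of 43 immediate early and ERK feedback genes 5 rose and 4 fell. Rgs1, which turns off G protein signaling, rose by 0.66 ± 0.08 and Mafk, a small Maf factor, by 0.53 ± 0.08. Dusp6, the phosphatase induced by ERK, was at 9.77 against 10.58 and 10.46 in set A and at 9.10 against 10.04 in set B. DMSO 5 was at 9.29, between the Dactolisib arrays. Dusp6 fell by 0.82 ± 0.09 within the sets (adjusted p = 0.00941) and lay at -0.65 ± 0.40 without them.

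Counts of cell type markers within the sets are given with their shares, against 2.24% of all genes that rose and 4.66% that fell. Of 33 epithelial markers 2 fell (6.06%), Cldn4 by 0.48 ± 0.09 and Cdh1 by 0.33 ± 0.08. At an unadjusted limma p under 0.05, 8 were lower and 0 higher. On both arrays 20 were lower and 3 higher than the own-set DMSO, with a median of -0.11. Krt18 lay at -0.30 without passing. Without the sets the epithelial median was -1.19. Of 20 monocyte and macrophage markers 3 fell, namely Cx3cr1, C1qc (-0.44 ± 0.08) and C1qa (-0.35 ± 0.08), with a median of -0.14 and list means of 7.38 to 7.53 with Dactolisib and 7.51 to 7.88 with DMSO. C1qa was at 7.47 and 7.27 against 7.60 to 9.13. Of 21 granulocyte markers 3 fell (14.3%), namely Pglyrp1, Mmp9 and Cxcr2, with a median of -0.08. T and NK cell, B cell, endothelial and erythroid markers gave 0 calls in limma, with 1 of 6 B cell genes and none of the others at an unadjusted p under 0.05. Seminal vesicle markers also gave 0 calls in limma, with 1 of 5 genes at an unadjusted p under 0.05. Their mean was 2.98 to 3.11 on the arrays of sets A and B, under the signal minimum of 3.98 for testing. These counts therefore cannot show whether seminal vesicle transcripts changed. Of 21 fibroblast markers 1 rose (4.76%) and 2 fell (9.52%), with a median of 0.00, and of 11 dendritic cell markers 1 fell (9.09%). The part of these cells in the gene lists above was not tested beyond the fit with the epithelial mean, in which no probe set passed and all 659 and 1260 differences kept their sign.

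The 3′ minus 5′ log2 signal of the control probe sets for Gapdh was -0.04 and -0.08 with Dactolisib and -0.10 to -0.04 with DMSO, and that for Actb was 0.08 and 0.15 against 0.03 to 0.08, so that Dactolisib 2 was highest for Actb. Dasatinib, the other inhibitor of the series, was measured at the same dose and time against the DMSO array of the same set, and its set B difference shares DMSO 3 with that of Dactolisib 2. For the small nucleolar RNA hosts the Dasatinib medians were 0.02 and -0.02, and for proteasome subunits 0.07 and -0.11. For Ypel2 the Dasatinib differences were -0.30 and 0.46 and for Prkar2b 0.16 and -0.14. Values nearer to those of Dactolisib were also present. For NF-kB genes the Dasatinib medians were 0.24 and 0.00, and for the respiratory chain -0.15 and -0.05. Pik3ip1 was at 0.93 and -0.04 and Cd83 at 0.83 and -0.04, in each case with the larger value on Dasatinib 1, which is measured against DMSO 5. The difference between the inhibitors was not tested.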

How the data were processed

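RNA of Gr-MDSCs was hybridized to an Affymetrix mouse genome array, 1 array per sample. The authors deposited a table of log2 signals of 45101 probe sets, of which 64 are controls. The submitters' processing notes name MAS5 and the study's methods name oligo, so the summarization is not settled; the values were used as deposited, with medians of 4.82 to 4.87 on the 8 arrays. The labels name Trizol and the methods an RNeasy kit for the RNA. Groups follow the array titles, because the treatment field calls the Dasatinib arrays Dactolisib.

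Probe sets were named through the platform annotation, with symbols updated by gene ID. A single gene was given for 34945, several for 932 and none for 9160, and the last 2 kinds stayed out of gene counts. The upper 66.7% by mean signal (at least 3.98) were tested, 30024 probe sets for 14237 genes. Differences were tested two-sided with limma 3.58.1 in R 4.3.3 with Benjamini-Hochberg adjustment over all tested probe sets, on 6 arrays, without and with array set as a factor. The 3 array sets, a fixed number, came from average linkage on 1 minus the Pearson correlation of all 8 arrays over the tested probe sets. Residual degrees of freedom were 4 without and 2 with the sets. The scripts were tested on simulated data. Python 3.11.15 with pandas 2.3.3, numpy 2.4.6, scipy 1.17.1 and matplotlib 3.10.9 made the tables and figures.

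A gene in a list was represented by its probe set of highest mean signal and, among the largest changes, by that of lowest p. Named were the 12 largest rises and falls with the same sign in both sets, the 6 lowest p in each direction without sets, up to 4 members per list by p, genes of interest to the study and up to 6 with large or repeated changes. Further members were named after their values were seen. The members and the 63 lists, 10 of them cell type markers, were chosen with earlier results of these data known. Of 2021 list genes 1864 are on the array and 1783 were tested. The alternatives were quantile normalization, 32 added before log2, other filters, priors and sample sets, each array left out, probe sets averaged, array weights, the methods' t-test and other ways to enter the sets.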

Additional observations from a re-analysis of the deposited data

Results flagged for a closer look

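In 25 of the 160 named genes that were examined (15.6%), a single DMSO array stood apart from the other 3 by Dixon's ratio, the gap to the nearest array over the whole range, at the 95% critical value for 4 samples. Chance alone marks about 1 in 20 groups. DMSO 5 was the array in 21 of these genes, the array that forms a set of its own and holds the highest epithelial signal, and the part of that signal in these values was not tested. Each gene below is given with the log2 signal of the array, the range of the other 3 and the ratio.

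DMSO 5 was high for Snhg12 (7.36 against 6.25 to 6.39, 0.879), Rwdd4a (6.66 against 4.90 to 5.15, 0.86), Lamtor2 (7.93 against 7.50 to 7.57, 0.83), Cat (9.11 against 7.24 to 7.50, 0.86) and Gas5 (9.23 against 8.57 to 8.61, 0.93). It was also high for Snhg1 (9.12 against 7.60 to 7.71, 0.928), Mrps17 (7.65 against 7.24 to 7.29, 0.869), Tfam (6.79 against 5.41 to 5.63, 0.843), Pla2g4a (7.51 against 5.90 to 6.11, 0.864), C1qc (8.04 against 6.84 to 6.97, 0.891) and Ei24 (7.97 against 7.50 to 7.57, 0.853). It was low for Hspbap1 (6.93 against 7.47 to 7.48, 0.985), Tspan2 (5.89 against 7.28 to 7.34, 0.96), Bcl6 (10.53 against 11.15 to 11.18, 0.944), Bbc3 (6.89 against 7.75 to 7.80, 0.948), Samhd1 (8.74 against 9.57 to 9.63, 0.935) and Ppt2 (8.30 against 8.96 to 9.04, 0.9). It was also low for Rgs1 (9.73 against 10.83 to 10.85, 0.989), Clec4a3 (5.75 against 7.97 to 8.22, 0.897), Spn (7.03 against 8.57 to 8.75, 0.893) and Itgal (9.48 against 10.55 to 10.70, 0.871).

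DMSO 3, the control of Dactolisib 2, stood apart for Tmem140 (10.25 against 9.69 to 9.76, 0.869), Prkaca (6.16 against 6.82 to 6.85, 0.967) and Pde4d (6.97 against 6.24 to 6.28, 0.95). DMSO 2 was low for Dck (9.12 against 9.51 to 9.54, 0.928).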

How the results depend on the processing

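Without array sets, 0 probe sets passed under every alternative run in limma and by the methods' t-test, while array weights gave 2126 higher and 2448 lower at an unadjusted p under 0.05. Within array sets, 659 rose and 1260 fell, and this count depended on the setting. It was 1436 and 2483 with 32 added before log2, 423 and 810 with no filter, 1283 and 2255 in the upper 33.3% by signal, 1454 and 2486 with a prior that was robust and followed the signal, 371 and 716 with all 8 arrays in the fit, 205 and 355 with array set as a random block, and 0 and 0 with the epithelial mean as a covariate, where 851 and 1103 had an unadjusted limma p under 0.05. Leaving out 1 array gave 0 to 1008 higher and 0 to 1846 lower. The count was 0 without Dactolisib 1, Dactolisib 2 or DMSO 3, with 1739 to 2310 higher and 2602 to 3054 lower at an unadjusted p under 0.05, and 1008 and 1846 without DMSO 2. Within the sets, the 659 and 1260 differences kept their sign under these settings, of which the upper 33.3% by signal tested 554 and 988 of them. All 1919 had the same sign in both own-set differences. Leaving out Dactolisib 1, Dactolisib 2 or DMSO 3 keeps only 1 of these differences, so no sign could change there, and those fits give no separate support. The causes were not tested.

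Of 147 named genes that passed, 77 did not pass with the random block and 38 with all 8 arrays. The random block left 3 of 9 FoxO targets, 2 of 5 NF-kB genes, 5 of 8 small nucleolar RNA hosts, 1 of 8 antioxidant genes and 6 of 14 proteasome genes. Of the genes that did not pass, Pik3cd (0.02) changed sign to -0.03 with all 8 arrays, -0.01 without Dactolisib 2 or DMSO 3 and -0.15 with probe sets averaged. Arg1 (-0.04) changed to 0.04 without Dactolisib 2 or DMSO 3 and to 0.57 with the epithelial covariate. No paired analysis was possible because the labels' replicate numbers of the Dactolisib and DMSO arrays share only number 2. Of the 659 and 1260, 478 and 751 were among the upper 10008 probe sets by signal.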
